A study of Saccharomyces cerevisiae with 21 samples.

Results

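The strain titled as the msn2 msn4 double mutant of Saccharomyces cerevisiae was set against the wild type in anaerobic chemostats limited for carbon, given as glucose (C limitation). The comparison takes 6 of the 21 arrays of the study, namely the 3 titled as C-limited cultures of the mutant and the 3 titled as C-limited reference cultures, chosen by their titles. Each array measured total RNA of a culture on an Affymetrix yeast genome array. The mutant is labelled CEN.PK113-7D, MATa, with the deletion alleles msn4::loxP-kanMX-loxP and msn2::loxP, the alleles ura3, suc2 and mal2-8c, and the plasmid p426(URA3), and its results are stated to come from independent cultures. The wild type is CEN.PK 113-7D (MATa), whose label lists neither a plasmid nor a marker. As labelled, the plasmid and the marker alleles of the mutant come together with both deletions. Whether the wild type shares any of these alleles is not stated. Mutant cultures were kept at pH 5.0 and a dilution rate of 0.10 per h in medium with Tween-80 and ergosterol, and wild-type cultures at pH 5.0, 30 °C and 0.10 per h in minimal medium with 25 g/L glucose under nitrogen gas. Both strains in nitrogen limitation (N limitation), with 3 arrays each, serve as a further comparison. Nothing says that the wild-type arrays came from separate cultures, so the spread between them may be technical. The p-values rest on the spread within groups shared over all 21 arrays of the study, which includes these. The 3 arrays per group limit the precision of every value.

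Msn2 and Msn4 are related zinc finger transcription factors that bind the stress response element in promoters. Protein kinase A keeps them out of the nucleus while glucose is plentiful, and when its activity falls they enter the nucleus and raise genes for chaperones, antioxidant enzymes and reserve carbohydrates. Glycogen, a branched glucose polymer, and trehalose, a disaccharide of glucose, are the reserve carbohydrates of yeast. The study asked whether these factors take part in the transcription of glycogen and trehalose genes in cultures that are not stressed.

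MSN2 (YMR037C) was read first as a check of the labels, and was at or next to the floor of 12 in the mutant. Its signal was 12, 12 and 13.7 on the mutant arrays, against 78.95, 58.02 and 76.2 on the wild-type arrays, at least 5.61-fold lower (log2 -2.49 ± 0.15, limma adjusted p 4.4e-09). Signals are in scaled intensity units, log2 values are mutant minus wild type with the standard error of the fit after ±, and folds are ratios of geometric means, written as at least N-fold where any array on the lower side was at the floor. A gene was called, and is said to have risen or fallen, if it changed by 2-fold or more with an adjusted p under 0.05. MSN4 (YKL062W) read 34.5, 47.5 and 39.7 in the mutant and 90.4, 62.7 and 76.9 in the wild type. All mutant arrays were below all wild-type arrays, but the difference missed the 2-fold threshold (log2 -0.91 ± 0.22), and where in the gene the probe set lies was not examined here. The URA3 gene (YEL021W), carried on the plasmid of the mutant, read 2278, 1087 and 1295 in the mutant against 49.9, 38.8 and 49.6 in the wild type, 32.2-fold higher. The 6 genes listed on either side of MSN2, MSN4 and URA3 were not called.

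The C-limited wild-type arrays form a deposit of their own and the mutant arrays belong to another, so deposit and strain cannot be told apart in any value below. As deposited, the trimmed mean signal was 150.1 to 150.2 on the mutant arrays and 235.0 to 251.0 on the wild-type arrays, and each array was therefore scaled to a common trimmed mean of 150.2. Of all probe sets 30.9% to 32.4% on a mutant array and 29.0% to 29.5% on a wild-type array then lay at the floor. Actin probe sets, which report on RNA integrity, gave a ratio of the 3' over the 5' signal of 1.42, 1.29 and 1.24 on the mutant arrays and 1.05, 1.20 and 1.15 on the wild-type arrays. By actin all mutant arrays thus lay above all wild-type arrays. The same ratio for a second control, TBP, did not follow this order. It was 1.85, 2.02 and 2.09 on the mutant arrays and 1.85, 2.46 and 2.96 on the wild-type arrays. The part of RNA integrity in the results was not tested. In RNA from a whole culture, a lower level in every cell and a loss of signal from some of the cells cannot be told apart.

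The array labelled C-limited mutant replicate 1 went against its label. Genes under nitrogen catabolite repression, whose products import and degrade poor nitrogen sources, were high on it, and genes of respiration and of growth on poor carbon sources were low. DAL5, an allantoate permease gene, read 1337 on it, against 83.5 and 109 on mutant replicates 2 and 3 and 70.8, 55.4 and 42.9 on the wild-type arrays. The general amino acid permease gene GAP1 read 1993 on it, against 91.9 and 136 on the other mutant arrays and 51.9, 123 and 80.8 on the wild-type arrays. For the ammonium permease gene MEP2 these signals were 2062, against 165 and 173 on the other mutant arrays and 217, 169 and 146 on the wild-type arrays. RGI2, a gene induced in respiratory growth, was at 12, against 302 and 226 on mutant replicates 2 and 3 and 305, 462 and 684 on the wild-type arrays. The invertase gene SUC2 read 146 on replicate 1, against 1364 and 1249 on the other mutant arrays and 2366, 1829 and 2080 on the wild-type arrays. DAL5 and RGI2 are the genes by which this array was first singled out, and GAP1 and MEP2 were chosen after their values were seen, so these signals describe the array and support nothing further. HXT3 and HXT4, genes of hexose transporters with lower affinity, were high on it. HXT3 read 1014 on replicate 1, against 209 and 159 on the other mutant arrays and 135, 221 and 206 on the wild-type arrays. HXT4 read 732, against 24.5 and 23.5 on the other mutant arrays and 12, 13.5 and 12 on the wild-type arrays.

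The summed signals of 2 lists on replicate 1 were close to those on the N-limited mutant arrays. The first of these lists holds DAL5, GAP1 and MEP2, so its sum describes the array and is no separate support. The 28 tested genes of nitrogen catabolite repression summed to a signal of 14895 on replicate 1 and to 3789 and 4112 on the other mutant arrays. The sum was 14567 to 16120 on the 3 N-limited arrays of the mutant, and on the wild-type arrays it was 14679 to 17098 in N limitation and 4252 to 5160 in C limitation. The 27 respiratory chain genes summed to 4743 on replicate 1 and to 13700 and 12475 on replicates 2 and 3, against 4728 to 5710 on the N-limited mutant arrays and 15501 to 16131 on the C-limited wild-type arrays. Other lists put it outside the N-limited mutant range, some nearer to that range and some nearer to mutant replicate 2 or 3. The first 3 lists below lay nearer to the N-limited range. Ribosome biogenesis genes summed to 3570 on replicate 1 and to 3880 to 4033 on the N-limited mutant arrays. On replicates 2 and 3 they summed to 4900 and 4880. For glycogen breakdown genes these sums were 264, then 143 to 221, then 84 and 123. For genes of anaerobic growth they were 27680, then 20259 to 26727, then 18806 and 21319. Pyrimidine synthesis genes lay nearer to replicates 2 and 3, with 7329, then 7665 to 8521, then 7156 and 7193. Sulfur assimilation genes lay nearest to replicate 2, with 9780, then 10594 to 11830, then 10529 and 10792. Of the 5461 genes tested, replicate 1 was at least 2-fold above each of the other 5 C-limited arrays for 106. It was at least 2-fold below them for 178. The other 5 arrays stood apart in this way for 0 to 8 genes in a direction. The genes that set replicate 1 apart included 16 of 28 genes of nitrogen catabolite repression, all above, and 17 of 27 respiratory chain genes, all below. Hexose transport and glucose sensing genes split, with 6 of 18 above and 3 below, and 0 of 21 ribosome biogenesis genes were among them. The array was kept as titled, and each count is given with and without it.

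**Figure D1:**
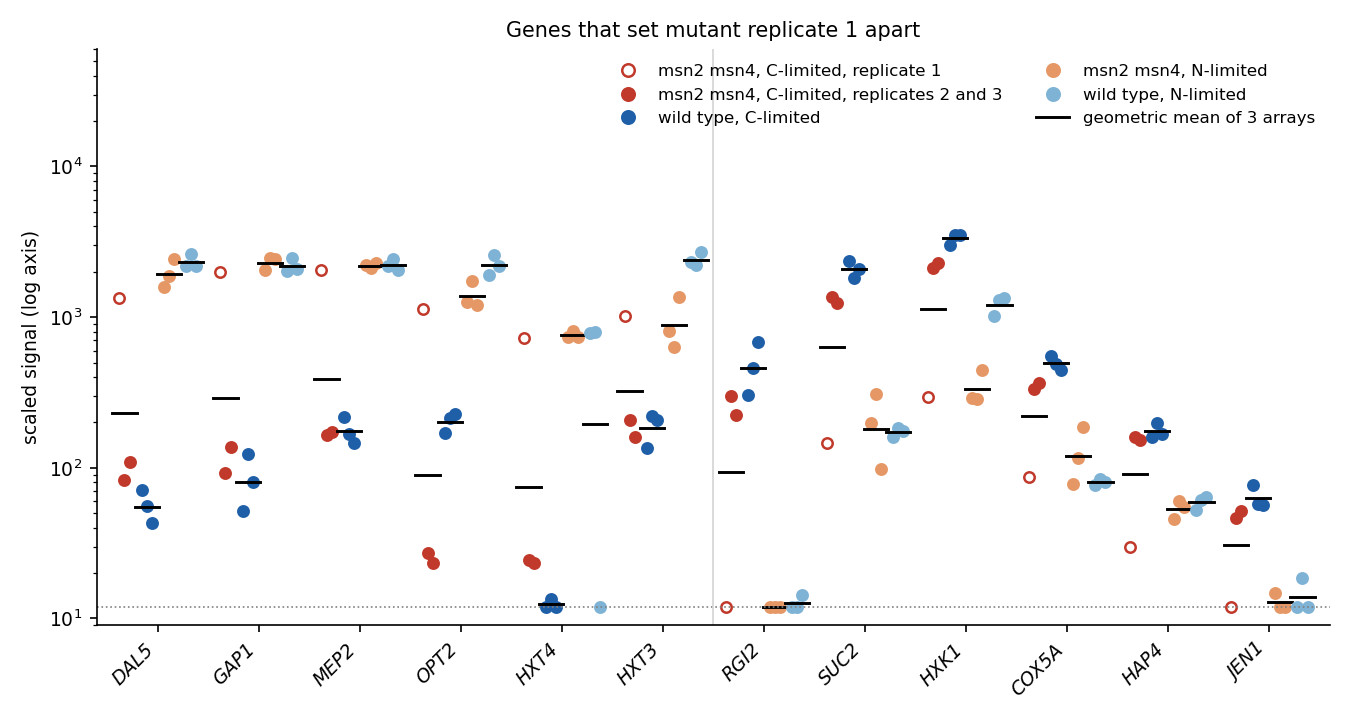
Scaled signal on a log axis for 12 genes on each array of the C-limited mutant, the C-limited wild type, the N-limited mutant and the N-limited wild type, with the geometric mean of each group of 3 arrays as a bar and the floor of 12 as a dotted line. Mutant replicate 1 (open circle) is at 1337 for DAL5 and at 12 for RGI2, the genes by which it was singled out, and at 1014 for HXT3, against 209 and 159 on mutant replicates 2 and 3.

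Of 5461 genes tested, limma called 220 (4.03%) in C limitation, of which 112 (2.05%) rose and 108 (1.98%) fell in the mutant. Without mutant replicate 1 the count was 141 (2.58%), with 66 (1.21%) higher and 75 (1.37%) lower. Each count of called genes in a list below is to be read against these shares of all genes. The calls shared by both were 118, which is 53.6% of the calls with 3 mutant arrays and 83.7% of those with 2. There were 102 calls only with replicate 1 and 23 only without it. The 3 mutant arrays lay above all wild-type arrays for 592 genes (10.8%) and below them for 665 (12.2%). Leaving out mutant replicate 2 instead gave 491 calls. In a fit of the 6 C-limited arrays of both strains alone, in place of all 21, 50 genes were called (17 higher and 33 lower), and in a fit of the 5 arrays left without replicate 1, 156.

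**Figure D2:**
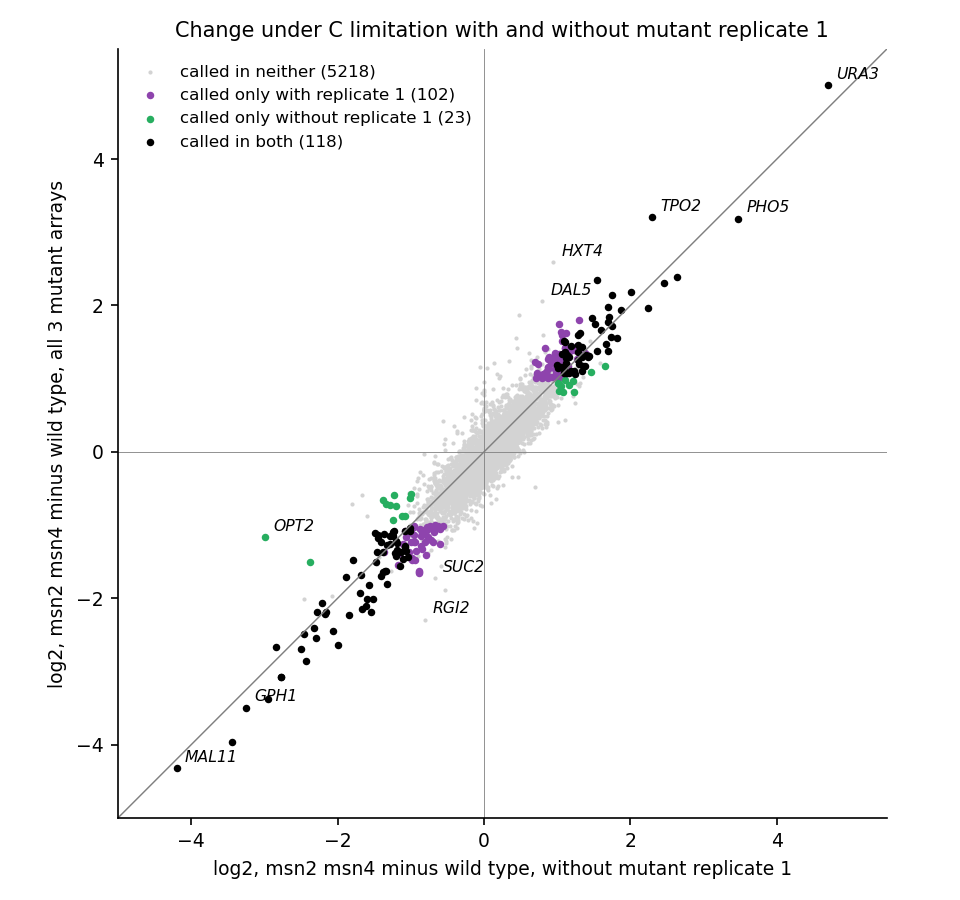
Log2 change of each of 5461 genes in the mutant relative to wild type, with all 3 mutant arrays (vertical axis) and without mutant replicate 1 (horizontal axis). The 118 genes called in both fits are black, and OPT2, DAL5, HXT4, RGI2 and SUC2 lie away from the diagonal.

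Several glycogen genes fell in the mutant. Of the 5 genes of glycogen synthesis 4 fell with all mutant arrays (median log2 of the list -1.08) and 3 without replicate 1 (-1.22), and 2 of the 3 genes of glycogen breakdown fell in both fits (-1.71 and -1.89). The median of all genes was -0.01 with replicate 1 and 0.03 without it. GPH1 (YPR160W), which encodes glycogen phosphorylase, had signals of 13.2, 23.3 and 21.1 on the mutant arrays and 205, 181 and 252 on the wild-type arrays. Every mutant array was near the floor and the groups did not overlap. Its mean was 19.2 ± 5.32 in the mutant and 212 ± 36.3 in the wild type (SD, n = 3 each), a fall of 11.3-fold (log2 -3.50 ± 0.47, limma adjusted p 0.00013), and of 9.49-fold without replicate 1.

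Genes of both glycogen synthases fell. GSY1 (YFR015C) read 25.5, 25.01 and 36.9 in the mutant against 130.5, 161 and 169 in the wild type, 5.32-fold lower (log2 -2.41 ± 0.18, adjusted p 1.2e-07; 5.02-fold without replicate 1). GSY2 (YLR258W) read 79.5, 50.1 and 68.3 in the mutant against 159, 139 and 115 in the wild type, 2.11-fold lower (log2 -1.08 ± 0.22, adjusted p 0.0051). The groups did not overlap for either gene, but the GSY2 call ended without wild-type replicate 1 (log2 -0.97, adjusted p 0.033) or without mutant replicate 2 (log2 -0.89, adjusted p 0.014). GLC3 (YEL011W), the branching enzyme gene, read 50.1, 125 and 154 in the mutant against 406, 411 and 457 in the wild type. It fell 4.29-fold (log2 -2.10 ± 0.30, adjusted p 0.00026), with the lowest signal on replicate 1, and 3.05-fold without that array. The glycogen debranching enzyme gene GDB1 (YPR184W) read 73.5, 38.1 and 68.7 in the mutant against 191, 168 and 211 in the wild type, 3.28-fold lower (log2 -1.71 ± 0.30, adjusted p 0.0018).

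Of the glycogenin genes, whose products prime glycogen, 1 of 2 was called with replicate 1 and 0 without it. GLG1 (YKR058W) read 13.5, 26.1 and 27.5 in the mutant against 48.4, 39.7 and 40.4 in the wild type and was 2.002-fold lower (log2 -1.00 ± 0.29, adjusted p 0.04). This call ended without wild-type replicate 1 (log2 -0.91, adjusted p 0.13), without wild-type replicate 2 (log2 -1.05, adjusted p 0.082), without wild-type replicate 3 (log2 -1.04, adjusted p 0.079) or without mutant replicate 1 (log2 -0.67, adjusted p 0.2). The arrays of GLG2 overlapped, at 21.1, 23.8 and 15.4 in the mutant against 30.6, 24.3 and 17.6 in the wild type. SGA1, the glucoamylase gene of sporulating cells, read 177, 22.6 and 32.9 in the mutant against 29.3, 23.5 and 14.7 in the wild type: mutant replicate 1 was high, the others overlapped with the wild type, and the gene was not called.

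Among 11 regulators of glycogen synthase 2 fell with replicate 1 and 1 without it. GAC1 (YOR178C), a subunit that directs the Glc7 phosphatase to glycogen synthase, read 19.3, 47.2 and 59.6 in the mutant against 192, 189 and 131 in the wild type. It fell 4.44-fold (log2 -2.15 ± 0.36, adjusted p 0.0011) and 3.17-fold without replicate 1. PIG2, another subunit of this kind, read 12, 24.7 and 20.2 in the mutant against 45.7, 34.3 and 39.5 in the wild type and was at least 2.18-fold lower (log2 -1.12 ± 0.28, adjusted p 0.019), a call that ended without wild-type replicate 1 (log2 -1.02, adjusted p 0.081) or without mutant replicate 1 (log2 -0.82, adjusted p 0.1). The cyclin gene PCL8 and GIP2 also had all mutant arrays below all wild-type arrays but missed the 2-fold threshold (log2 -0.82 ± 0.20 and -0.69 ± 0.14). GLC7, GLC8, PIG1, PCL6, PCL7, PCL10 and the kinase gene PHO85 had overlapping arrays, with log2 values between -0.45 and 0.35.

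In the trehalose lists 1 of 4 synthesis genes fell in either fit, and 0 of 3 breakdown genes fell with replicate 1 and 1 without it. TSL1 (YML100W), a large subunit of the trehalose synthase complex, read 63.4, 27.1 and 40.2 in the mutant against 97, 81.7 and 91.4 in the wild type. It was 2.19-fold lower (log2 -1.13 ± 0.23, adjusted p 0.006), 2.72-fold without replicate 1, and its call ended without mutant replicate 2 (log2 -0.83, adjusted p 0.015). TPS1, the synthase gene, read 191, 156 and 258 in the mutant against 377, 391 and 335 in the wild type (log2 -0.89 ± 0.23, not called). All mutant arrays of TPS1 lay below all wild-type arrays. TPS2, the phosphatase gene of the complex, had overlapping arrays, 188, 131 and 208 in the mutant against 163, 140.1 and 141 in the wild type (log2 0.22 ± 0.22), as had TPS3 (log2 -0.55 ± 0.25). The neutral trehalase gene NTH1 read 128, 68.1 and 83.7 in the mutant against 169.9, 169 and 157 in the wild type, with log2 -0.88 ± 0.20 and no call with replicate 1, and fell 2.18-fold without it (adjusted p 0.0014). NTH2 overlapped between the strains, and the acid trehalase gene ATH1 had all mutant arrays lower but a log2 of only -0.46 ± 0.19.

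The genes that lead glucose into these reserves were called in 1 of 6 cases with replicate 1 and in 0 of 6 without it, where 3 had an unadjusted p under 0.05. The glucokinase gene GLK1 read 557, 524 and 791 in the mutant against 1317, 1469 and 1237 in the wild type, 2.18-fold lower (adjusted p 0.019), and this call ended without wild-type replicate 1 (log2 -1.14, adjusted p 0.057), without wild-type replicate 2 (log2 -1.06, adjusted p 0.072) or without mutant replicate 1 (log2 -1.06, adjusted p 0.074). PGM2, a phosphoglucomutase gene, read 51.3, 52.9 and 66.7 in the mutant against 183, 171 and 140.4 in the wild type with log2 -1.53 ± 0.50 and missed the threshold (adjusted p 0.068). The hexokinase gene HXK1 was uncalled (log2 -1.56 ± 0.51), with 293 on replicate 1, 2127 and 2297 on the other mutant arrays and 3022, 3525 and 3487 on the wild-type arrays. HXK2, PGM1 and the UDP-glucose pyrophosphorylase gene UGP1 had log2 values of 0.13, 0.45 and -0.07 and were not called. Over the 32 reserve carbohydrate genes, all of them tested, 10 fell and 0 rose with all mutant arrays, and 8 fell and 0 rose without replicate 1, against 1.98% and 1.37% of all genes called lower. The median log2 was -0.62 and -0.50.

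**Figure D3:**
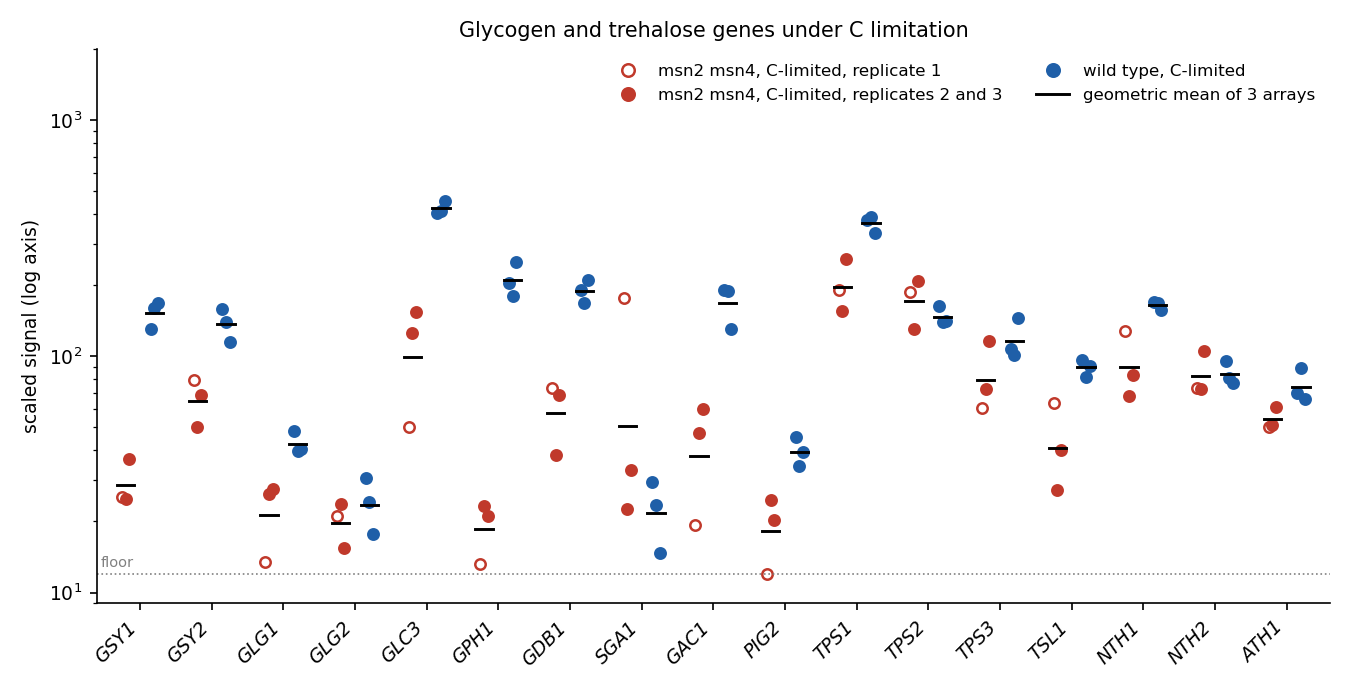
Scaled signal on a log axis of 17 glycogen and trehalose genes on each C-limited mutant array (red, replicate 1 open) and wild-type array (blue), with the geometric mean of 3 arrays as a bar and the floor of 12 as a dotted line. The groups are farthest apart for GPH1, where mutant signals run from 13.2 to 23.3 and wild-type signals from 181 to 252.

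Of 36 listed stress targets of Msn2 and Msn4, 6 fell and 1 rose in C limitation with all mutant arrays, against 1.98% and 2.05% of all genes. Without replicate 1, 7 fell and 0 rose, against 1.37% and 1.21% of all genes, and most of the list was not called in either fit. The median log2 of the list was -0.18 and -0.34, and 3 of its genes, CTT1, ALD3 and TKL2, were at the floor on all 6 arrays. The genes that fell were DCS2, MRK1, CYC7, DDR2, SOL4 and SIP18, joined by DDR48 without replicate 1. DCS2 (YOR173W), a regulator of the mRNA decapping scavenger, read 23.9, 13.8 and 19.3 in the mutant against 116, 125 and 111 in the wild type. The groups did not overlap, and the gene fell 6.33-fold (log2 -2.66 ± 0.17, limma adjusted p 7e-09) and 7.19-fold without replicate 1.

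MRK1 (YDL079C), a glycogen synthase kinase 3 homologue, read 33.6, 139 and 122 in the mutant against 439, 527 and 600.3 in the wild type. It fell 6.25-fold (log2 -2.64 ± 0.37, adjusted p 0.00022) by its brighter probe set, with log2 -2.50 by the other, and 3.98-fold without replicate 1, where its signal was lowest. CYC7 (YEL039C), the second isoform of cytochrome c, read 12.9, 22.4 and 20.2 in the mutant against 85.2, 141 and 95.97 in the wild type and fell 5.82-fold (log2 -2.54 ± 0.33, adjusted p 8.5e-05). Its mutant arrays were all close to the floor. DDR2, a gene induced by many stresses, read 192, 169 and 244 in the mutant against 535, 772 and 441 in the wild type and fell 2.85-fold (adjusted p 0.00072). SOL4, a 6-phosphogluconolactonase gene, read 13.7, 12 and 12 in the mutant against 23.5, 35.7 and 32.9 in the wild type and was at least 2.41-fold lower (adjusted p 0.0025). SIP18, a hydrophilin gene, read 12, 12.1 and 12 in the mutant against 24.3, 28.6 and 23.5 in the wild type, at least 2.11-fold lower (adjusted p 1.6e-05), and its call ended without wild-type replicate 2 (log2 -0.99, adjusted p 0.00021).

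Other well known targets were not called. HSP12, a membrane-stabilising heat shock protein gene, read 334, 219.8 and 185 in the mutant and 256, 381 and 338 in the wild type (log2 -0.43 ± 0.25, and -0.67 ± 0.25 with adjusted p 0.16 without replicate 1). The small heat shock protein gene HSP26 read 183, 108 and 146 in the mutant and 133, 230 and 120.4 in the wild type (log2 -0.12 ± 0.26), and the secreted glycoprotein gene YGP1 read 139.5, 57.7 and 85.8 in the mutant and 102, 106 and 98.2 in the wild type (log2 -0.21 ± 0.30, and -0.54 ± 0.29 with adjusted p 0.35 without replicate 1). The strains overlapped for HSP12 and YGP1 with replicate 1, which was the highest mutant array, and not without it, while HSP26 overlapped in both cases. The catalase gene CTT1 was at the floor of 12 on all 6 arrays, so no fold can be given. DDR48 depended on replicate 1: it read 2129, 833 and 818 in the mutant against 2012, 1964 and 1712 in the wild type, with log2 -0.74 ± 0.33 uncalled, and fell 2.29-fold without that array (adjusted p 0.023). These values are of its brighter probe set, and the other stood at log2 -0.21 with all mutant arrays, uncalled. SSA4, a heat-inducible Hsp70 gene, read 186, 63.6 and 76.5 in the mutant against 39.3, 46.96 and 40.1 in the wild type and was 2.31-fold higher (adjusted p 0.028), a call that ended without wild-type replicate 1 (log2 1.16, adjusted p 0.094), without wild-type replicate 2 (log2 1.28, adjusted p 0.059), without wild-type replicate 3 (log2 1.17, adjusted p 0.077) or without mutant replicate 1 (log2 0.73, adjusted p 0.14).

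**Figure D4:**
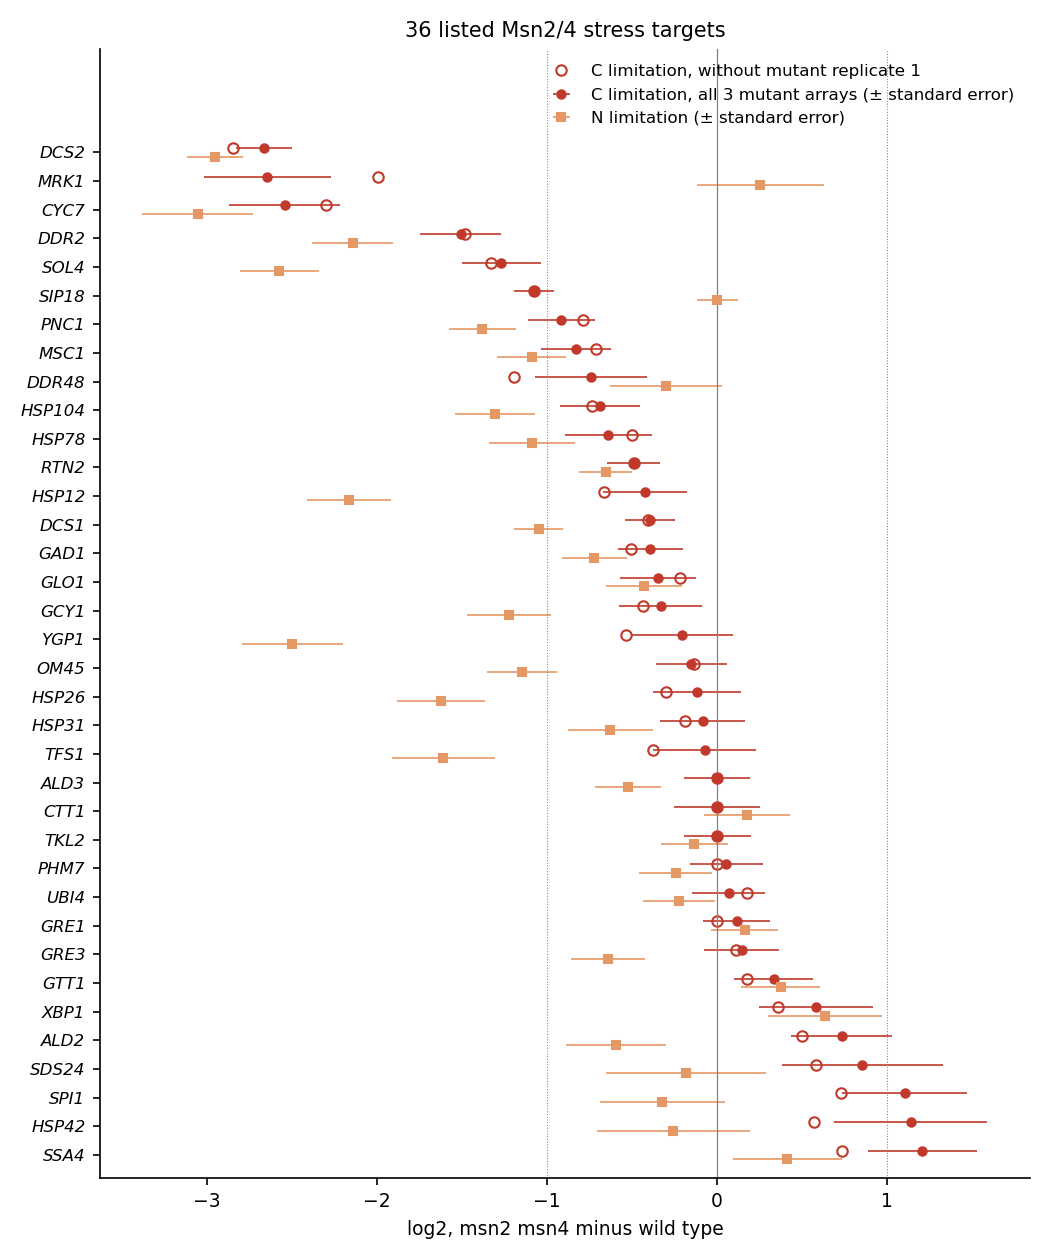
Log2 change in the mutant relative to wild type for the 36 listed stress targets in C limitation (red circles, open without mutant replicate 1) and in N limitation (orange squares), with standard errors as bars and the 2-fold lines dotted. DCS2, CYC7, DDR2 and SOL4 lie left of -1 in both limitations, MRK1 and SIP18 do so in C limitation, and HSP12, HSP26 and YGP1 do so in N limitation.

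Of 17 oxidative stress genes tested, 3 were called lower and 1 higher in either fit. Of all genes 1.98% were called lower and 2.05% higher with replicate 1, and 1.37% and 1.21% without it. TSA2, a cytosolic peroxiredoxin gene, read 21.5, 31.1 and 39.4 in the mutant against 94.3, 116 and 134 in the wild type and fell 3.81-fold (log2 -1.93 ± 0.23, adjusted p 3.6e-05). The glutaredoxin gene GRX2 read 72.8, 125 and 114 in the mutant against 344, 374 and 353 in the wild type and fell 3.52-fold (adjusted p 5.7e-05), and the mitochondrial peroxiredoxin gene PRX1 read 100.3, 185 and 189 in the mutant against 417, 419 and 338 in the wild type and fell 2.57-fold (adjusted p 0.00071). AHP1, a thiol peroxidase gene, was the one that rose, at 1062, 566 and 956 in the mutant against 336, 328 and 252 in the wild type, 2.74-fold higher (log2 1.46 ± 0.23, adjusted p 0.00084). Its arrays did not overlap between the strains.

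Chaperone genes of the heat shock factor Hsf1 had a median log2 of 0.59, and 0.42 without replicate 1. Of 19 such genes 3 rose and 0 fell, against 2.05% and 1.98% of all genes. Without replicate 1 only MDJ1 was called. MDJ1, a mitochondrial Hsp40 gene, read 169, 112 and 176 in the mutant against 49.7, 66.5 and 51.7 in the wild type, 2.69-fold higher (adjusted p 0.0012) and 2.52-fold higher without replicate 1. HSF1 itself read 183, 74.7 and 156 in the mutant against 42.5, 57.6 and 70.7 in the wild type, 2.31-fold higher (adjusted p 0.016), and its call ended without wild-type replicate 1 (log2 1.01, adjusted p 0.082), without mutant replicate 1 (log2 0.95, adjusted p 0.087) or without mutant replicate 3 (log2 1.07, adjusted p 0.063). CUR1, a sorting factor for misfolded proteins, read 82.7, 94.5 and 64.3 in the mutant against 34.5, 34.8 and 36.6 in the wild type. It was 2.25-fold higher (adjusted p 0.025), and this call ended whenever mutant replicate 1 or any wild-type array was left out (log2 1.14 to 1.20, adjusted p 0.055 to 0.077). In the glycerol list 2 of 12 genes rose with replicate 1, against 2.05% of all genes. The glycerol 3-phosphate dehydrogenase gene GPD1 read 1010, 393 and 618 in the mutant against 224, 267 and 292 in the wild type, 2.41-fold higher, but missed the 2-fold threshold without replicate 1 (log2 0.92). YPR1, an aldo-keto reductase gene, read 338, 236 and 220.4 in the mutant against 95.3, 125 and 124 in the wild type, 2.28-fold higher (adjusted p 0.0039) and stayed called without replicate 1 at 2.003-fold.

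The 15 genes with the lowest log2 change among those called without overlap began with a sugar transporter. MAL11 (YGR289C), an alpha-glucoside permease gene, read 36.7, 47.5 and 47.4 in the mutant against 703, 1031 and 918 in the wild type. It fell 20.04-fold (log2 -4.33 ± 0.18, limma adjusted p 5e-11), about equally without replicate 1 (18.4-fold). The maltose permease gene MAL31 read 32.3, 66.4 and 79.4 in the mutant against 338, 307 and 269 in the wild type and fell 5.47-fold (adjusted p 0.00013). The labels give mal2-8c for the mutant and list no MAL allele for the wild type, so they do not say whether the strains differ there.

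EGO4 (YNR034W-A) read 18, 63.3 and 45.3 in the mutant against 698, 559.5 and 504 in the wild type and fell 15.6-fold (log2 -3.97 ± 0.42, adjusted p 7.8e-06; 10.9-fold without replicate 1). RGI1, a gene induced in respiratory growth, read 29.8, 73.6 and 71.1 in the mutant against 562, 563 and 558 in the wild type and fell 10.4-fold (adjusted p 7.8e-06). COX26, a cytochrome c oxidase subunit gene, read 12, 25.2 and 20.5 in the mutant against 94.5, 204 and 194 in the wild type and was at least 8.45-fold lower (adjusted p 5.1e-07). For all 3 genes replicate 1 was the lowest array, and the calls held without it. STF2, a hydrophilin gene, read 60, 169 and 122 in the mutant against 847, 731 and 752 in the wild type and fell 7.22-fold (adjusted p 6.9e-06). AQR1, a multidrug transporter gene, read 12, 25.01 and 20.7 in the mutant against 168, 132 and 168 in the wild type and was at least 8.45-fold lower (adjusted p 8.1e-08). BAP2, a branched-chain amino acid permease gene, read 38.2, 49.4 and 66.1 in the mutant against 342, 336 and 295 in the wild type and fell 6.48-fold (adjusted p 2.4e-06). RPR1, the RNA of nuclear RNase P, read 20.4, 43.01 and 46.9 in the mutant against 124, 186 and 181 in the wild type and fell 4.67-fold (adjusted p 0.0017). The rest of the 15 were GPH1, GSY1, DCS2, MRK1, CYC7 and MSN2, described above.

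The 15 genes with the highest log2 change had URA3 first. TPO2, a polyamine exporter gene, read 463, 59.7 and 81.4 in the mutant against 13.4, 12 and 17.9 in the wild type. It was at least 9.22-fold higher (log2 3.21 ± 0.53, limma adjusted p 0.0011), with much of this on replicate 1, and at least 4.9-fold higher without it. PHO5 (YBR093C), the secreted acid phosphatase gene, read 73.7, 139.6 and 127 in the mutant, with every wild-type array at the floor, at least 9.11-fold higher (adjusted p 1e-08). The phosphate transporter gene PHO84 read 75.2, 123 and 144 in the mutant against 33.4, 28.3 and 23.6 in the wild type, 3.91-fold higher (adjusted p 8.6e-05). In the list of the phosphate regulon, genes raised when phosphate is short, 4 of 15 tested rose with replicate 1 and 3 without it, against 2.05% and 1.21% of all genes, and 0 fell. The other members that rose were PHO89 and GIT1. The phosphate transporter gene PHO89 read 213, 60.6 and 65.1 in the mutant against 27.4, 33.9 and 30.3 in the wild type, 3.1-fold higher, and its call ended without mutant replicate 1 or any wild-type array (log2 1.05 to 1.71, adjusted p 0.055 to 0.12). The glycerophosphoinositol transporter gene GIT1 read 26.5, 37.5 and 39.5 in the mutant against 18.2, 19.9 and 12 in the wild type, at least 2.08-fold higher. The GIT1 call ended when mutant replicate 2 or 3 or any wild-type array was left out (log2 0.84 to 1.20, adjusted p 0.054 to 0.14).

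SED1, PIR3 and CWP1, which code for cell wall proteins, rose, CWP1 being chosen after its values were seen. SED1, an abundant cell wall protein gene, read 1880, 1059 and 2497 in the mutant against 309, 601 and 477 in the wild type, 3.83-fold higher (log2 1.94 ± 0.30, adjusted p 0.00057). PIR3, another cell wall protein gene, read 91.9, 49.01 and 128 in the mutant against 34.3, 22.9 and 18.5 in the wild type, 3.41-fold higher (adjusted p 0.004), and CWP1, a cell wall mannoprotein gene, read 197, 169.7 and 306 in the mutant against 81.6, 104 and 75.98 in the wild type, 2.51-fold higher (adjusted p 0.0012). The groups did not overlap for any of them. NCA3 read 97.3, 148 and 178 in the mutant against 23.9, 29.5 and 25.3 in the wild type and rose 5.23-fold (adjusted p 0.0011). WSC4, a gene of the cell wall sensor family, read 326, 51.8 and 74.7 in the mutant against 19.8, 19.4 and 25.2 in the wild type, 5.07-fold higher, and 2.92-fold without replicate 1, on which it was highest. The phospholipase B gene PLB3 read 154, 89.7 and 132 in the mutant against 20.4, 26.3 and 36.5 in the wild type, 4.53-fold higher (adjusted p 0.00034). PDR5, a multidrug transporter gene, read 917, 391 and 501 in the mutant against 175, 152 and 151 in the wild type, 3.55-fold higher (adjusted p 0.00016). Of the 5 other probe sets of PDR5 1 was called, and their log2 values ran from 0.00 to 2.64.

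PIN4, a gene of the cell cycle response to DNA damage, read 144, 200.3 and 196 in the mutant against 32.4, 40.96 and 35.4 in the wild type, 4.95-fold higher (adjusted p 6.9e-06). The kinetochore gene DSN1 read 77.2, 62.3 and 57.1 in the mutant against 20.3, 12.2 and 24.2 in the wild type, 3.58-fold higher (adjusted p 3.1e-05), and HMS2 and PRM10 were 3.94-fold and 4.42-fold higher. DIA1 was 3.37-fold higher with replicate 1, on which it read 631, and uncalled without it (log2 1.02, adjusted p 0.21) or without any one of the wild-type arrays (log2 1.63 to 1.89, adjusted p 0.081 to 0.12).

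**Figure D5:**
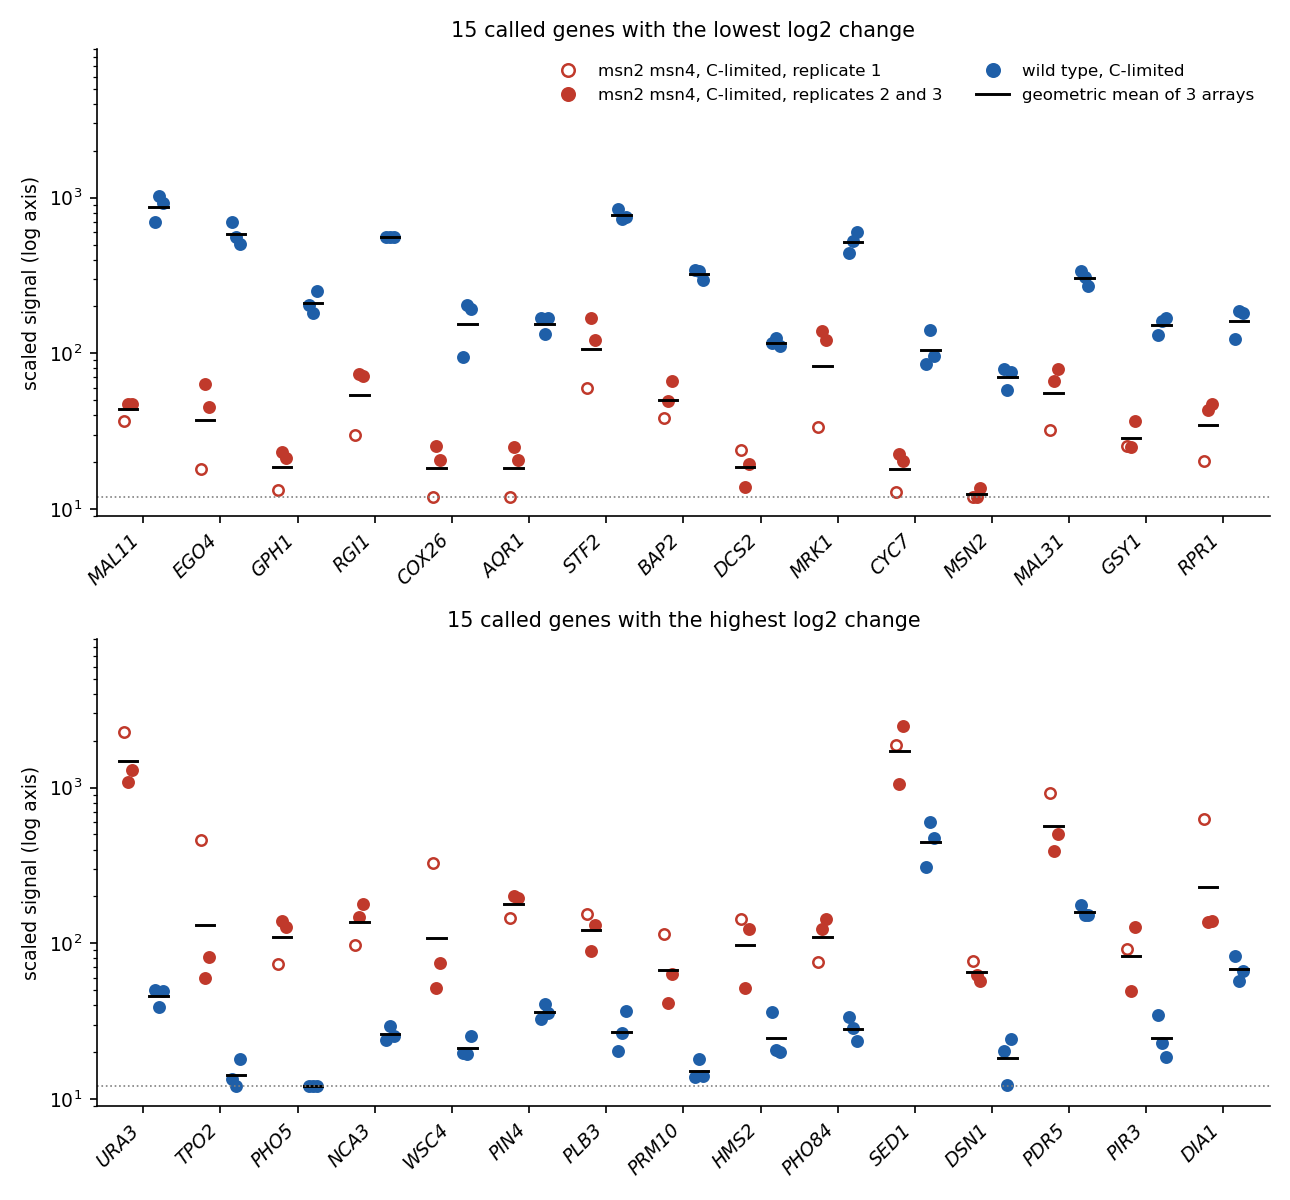
Scaled signal on a log axis on each C-limited mutant array (red, replicate 1 open) and wild-type array (blue) for the 15 called genes with the lowest (top) and the highest (bottom) log2 change, with the geometric mean of 3 arrays as a bar and the floor of 12 as a dotted line. MAL11 runs from 36.7 to 47.5 in the mutant and from 703 to 1031 in the wild type, and for TPO2, WSC4 and DIA1 mutant replicate 1 stands well above replicates 2 and 3.

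AGA1 and FUS1, chosen after their values were seen, rose. AGA1, the anchor of a-agglutinin, read 197, 129 and 334 in the mutant against 72.5, 60.2 and 54.5 in the wild type, 3.29-fold higher (adjusted p 0.00021), and FUS1, a gene of cell fusion induced by pheromone, read 49.6, 56.1 and 51.02 in the mutant against 18.9, 18.02 and 30.8 in the wild type, 2.38-fold higher (adjusted p 0.0079). MF(ALPHA)1, the alpha pheromone gene, read 100.2, 156 and 132 in the mutant against 35.1, 70.5 and 47.7 in the wild type, 2.6-fold higher (adjusted p 0.014), and its call ended without wild-type replicate 1 (log2 1.14, adjusted p 0.078). Both strains are labelled MATa, and the 3 tested alpha-cell markers summed to 210 to 241 on the mutant arrays and 107 to 136 on the wild-type arrays. MF(ALPHA)1 gave most of this difference, and STE3, an a-factor receptor gene, and SAG1, the alpha-agglutinin gene, had overlapping arrays (log2 -0.01 and 0.44). In N limitation these sums were 210 to 298 in the mutant and 244 to 272 in the wild type. The 7 a-cell markers summed to 7012 to 11999 on the C-limited mutant arrays and 8166 to 8849 on the C-limited wild-type arrays. Of the a-cell markers 0 were called with replicate 1, and 2 had an unadjusted p under 0.05; the pheromone receptor gene STE2 stood at log2 0.38 ± 0.14 and the protease gene BAR1 at 0.45 ± 0.26. Without it AGA2, the adhesive subunit of a-agglutinin, was called (2.14-fold higher, adjusted p 0.00095). Among the 9 tested genes of meiosis and sporulation UME6, a regulator of meiotic genes, was called: it read 40.4, 26.7 and 34.4 in the mutant against 12, 17.9 and 15.8 in the wild type, at least 2.21-fold higher (adjusted p 0.0021), and ended without wild-type replicate 1 (log2 0.98, adjusted p 0.016).

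Lists that follow the carbon and nitrogen supply differed with and without replicate 1. Respiratory chain genes had a median log2 of -0.74 with it and -0.21 without it. Of 27 such genes 3 fell with replicate 1, against 1.98% of all genes: COX13, SDH3 and NDI1 (2.78-fold, 2.13-fold and 2.35-fold lower). Without it 0 were called, and 6 had an unadjusted p under 0.05, as had 17.7% of all genes. Without it COX13 was at log2 -0.99 (adjusted p 0.037), SDH3 at -0.68 (0.087) and NDI1 at -0.81 (0.087). SDH3 also ended without wild-type replicate 1 or 2 (adjusted p 0.076 and 0.06) and NDI1 without wild-type replicate 1 (0.077). COX13, a cytochrome c oxidase subunit gene, read 96.6, 315 and 222 in the mutant against 552, 568 and 462 in the wild type. COX26, described above, is such a gene outside this list, and it stayed called lower without replicate 1 (log2 -2.77, limma adjusted p 1.8e-06). Genes of nitrogen catabolite repression had a median log2 of 0.51 with replicate 1 and -0.01 without it. Of 28 tested 1 rose (PUT2, 2.01-fold) and 1 fell (MEP3) with it, and 2 fell (MEP3 and OPT2) and 0 rose without it. PUT2, a proline breakdown gene, read 180.1, 119 and 155 in the mutant against 60.4, 80.5 and 83.9 in the wild type, and its call ended without wild-type replicate 1 (log2 0.86, adjusted p 0.037), without mutant replicate 1 (log2 0.87, adjusted p 0.034) or without mutant replicate 3 (log2 0.98, adjusted p 0.023). MEP3, an ammonium permease gene, read 53.1, 61.8 and 32.01 in the mutant against 222, 238 and 189 in the wild type and fell 4.57-fold (log2 -2.19 ± 0.29, adjusted p 0.00013). OPT2, an oligopeptide transporter gene, read 1140 on replicate 1, 27.3 and 23.5 on the other mutant arrays and 169, 215 and 228 on the wild-type arrays. It was uncalled with replicate 1 (log2 -1.17 ± 0.91) and fell 7.98-fold without it (adjusted p 1.3e-05).

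Of 27 tested genes of glucose-repressed carbon metabolism 4 fell in either fit, and these were MAL11, MAL31, RGI1 and PCK1. The phosphoenolpyruvate carboxykinase gene PCK1 read 48.5, 51.9 and 83.9 in the mutant against 175, 146 and 134 in the wild type, 2.53-fold lower (adjusted p 0.0061) and 2.28-fold lower without replicate 1. SUC2 was uncalled in both fits, at log2 -0.67 ± 0.33 without replicate 1. Of 18 genes of hexose transport and glucose sensing HXT5, a transporter gene of slow growth, was called: it read 74.2, 50.3 and 74.9 in the mutant against 26.98, 29.5 and 20.3 in the wild type, 2.58-fold higher (adjusted p 0.00062; 2.43-fold without replicate 1).

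Among genes of anaerobic growth 2 of 17 tested fell with replicate 1, against 1.98% of all genes. COX5B, the oxidase subunit made at low oxygen, read 34.7, 36.9 and 22.4 in the mutant against 57.01, 104 and 83.8 in the wild type, 2.59-fold lower (adjusted p 0.0025), and the sterol importer gene AUS1 was 2.07-fold lower but under the 2-fold threshold without replicate 1 (log2 -0.88). The other probe sets of AUS1 were not called with all mutant arrays, at log2 -0.93 to -1.35. In the sulfur list 1 of 22 genes fell, the sulfate permease gene SUL1, which read 239, 474 and 387 in the mutant against 1251, 1040 and 991 in the wild type, 3.09-fold lower (adjusted p 4.5e-05). In the pyrimidine list 2 of 15 rose and 0 fell in either fit, URA3 and URA4 (2.07-fold) with replicate 1, and URA3 and URA1 (3.13-fold) without it. The URA4 call ended without wild-type replicate 3 (log2 0.98, adjusted p 0.0078) or without mutant replicate 1 (log2 0.99, adjusted p 0.006). With or without replicate 1, limma called 0 of 23 genes of the kinase signalling upstream of Msn2 and Msn4, 0 of 13 of the zinc regulon, 0 of 24 of general amino acid control, 0 of 17 of autophagy, 0 of 18 ribosomal protein genes and 0 of 21 ribosome biogenesis genes. Of these 10, 2, 6, 3, 4 and 6 had an unadjusted p under 0.05 with all mutant arrays, and 6, 4, 7, 2, 4 and 2 without replicate 1. Of all genes 23.6% had such a p with all mutant arrays and 17.7% without replicate 1. In the signalling list the protein kinase A subunit gene TPK2 and the GTPase gene RAS2 had all mutant arrays below all wild-type arrays (log2 -0.63 ± 0.13 and -0.82 ± 0.14) without reaching a 2-fold change.

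To see where C limitation differs, the same strains were compared in N limitation, with 3 N-limited arrays of each. The growth label of the mutant gives a target of 17 g/L residual glucose there. The growth label of the N-limited wild type names air sparging and limiting glucose, so residual glucose cannot be taken as matched. The mutant and wild-type arrays again come from different deposits. In N limitation limma called 428 genes (7.84%), 128 (2.34%) higher and 300 (5.49%) lower in the mutant. All mutant arrays lay above all wild-type arrays for 14.0% of the genes there and below them for 29.1%. Of the 108 genes lower in C limitation 59 were also lower in N limitation (54.6% of the C calls and 19.7% of the N calls), and of the 112 higher 24 were also higher (21.4% and 18.8%). Without replicate 1 these were 44 of 75 lower genes (58.7% and 14.7%) and 12 of 66 higher genes (18.2% and 9.4%). Only the small nucleolar RNA gene SNR4 was called in opposite directions, 3.11-fold lower in C and 2.28-fold higher in N limitation. Of the stress targets 15 of 36 fell in N limitation, with a median log2 of -0.64, and of the reserve carbohydrate genes 16 of 32, with a median of -0.99, and the median of all genes there was -0.14.

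The test of the difference itself, the mutant effect in C minus that in N limitation, called 82 genes (1.50%), 56 (1.03%) of them more positive in C limitation and 26 (0.476%) more negative. Without replicate 1 it called 135 (2.47%), 96 (1.76%) and 39 (0.714%). The median difference of all genes was 0.12 in these values and 0.00 after quantile normalization. The split was 49 and 57 in quantile-normalized values, 38 and 58 on a common median, and with no scaling 111 and 18. Among the stress targets HSP12, HSP26 and YGP1 differed. HSP12 read 247, 364 and 235 on the N-limited mutant arrays against 1226, 1084 and 1427 on the N-limited wild-type arrays, so that its effect was log2 -2.16 in N and -0.43 in C limitation (difference 1.74 ± 0.35, adjusted p 0.015). The wild-type signals did not overlap between the limitations, and the mutant signals overlapped only through C-limited replicate 1. For YGP1 the N-limited signals were 111, 93.3 and 102 in the mutant and 526, 721 and 502 in the wild type (difference 2.29 ± 0.42, adjusted p 0.008), and for HSP26 the difference was 1.50 ± 0.37 (adjusted p 0.045). HSP26 lost this call without replicate 1 (difference 1.32, adjusted p 0.067) or without any of 8 other arrays left out singly (1.32 to 1.53, adjusted p 0.081 to 0.11). HSP12 lost it without N-limited mutant replicate 3 (1.62, adjusted p 0.05), and both HSP12 and YGP1 kept it without replicate 1 (difference 1.50 and 1.96).

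MRK1 differed the other way. It read 30.1, 40.01 and 40.4 in the N-limited mutant and 22.9, 37.7 and 33.2 in the N-limited wild type, where the strains overlapped, and the difference of its effects was -2.90 ± 0.53 (adjusted p 0.0077). SIP18 was at the floor on all N-limited arrays of both strains, so that its difference of -1.08 ± 0.17 (adjusted p 0.0028) is that of C limitation alone, and it ended without wild-type replicate 2 (-0.99, adjusted p 0.011). MAL11 (difference -2.69 ± 0.26, adjusted p 3.5e-05), MEP3 (-2.71 ± 0.42, adjusted p 0.0024) and BAP2 (-2.73 ± 0.36, adjusted p 0.00067) also had more negative effects in C limitation, and these calls held without replicate 1. MAL11 was lower in the mutant in N limitation too (log2 -1.63), whereas MEP3 and BAP2 stood at log2 0.52 and 0.04 there and were not called. Of the 32 reserve carbohydrate genes 1 differed with all mutant arrays, TPS2. It read 135, 138 and 97.5 in the N-limited mutant and 272, 305 and 266 in the N-limited wild type, so that it fell 2.3-fold there and not in C limitation (difference 1.43 ± 0.31, adjusted p 0.023). This call ended when any of mutant replicate 3, wild-type replicate 2 or 3, N-limited mutant replicate 3 or N-limited wild-type replicate 1 or 2 was left out (difference 1.26 to 1.45, adjusted p 0.05 to 0.074). Without replicate 1, 3 of the 32 differed, TPS2 (difference 1.36), PIG2 (1.81) and HXK1 (1.26). GPH1 fell in both limitations, 11.3-fold in C and 26.9-fold in N limitation, and the difference of 1.26 ± 0.66 did not pass (adjusted p 0.35).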

How the data were processed

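Total RNA of chemostat cultures was measured on Affymetrix yeast genome arrays, 21 in all in 7 groups of 3. The authors deposited linear signal intensities per probe set, made with GCOS 1.2 for the mutant arrays per the labels' protocols; the software of the wild-type arrays of C limitation is not given in the sources used here. Those protocols also speak of values under 12 set to 12, but 30.9% to 32.4% of the deposited mutant intensities lie below 12.

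From these intensities all arrays were brought to the same 2% trimmed mean (150.2), floored at 12 and turned to log2. Of 9335 probe sets 60 were controls, 6504 had 1 gene symbol, 328 several and 2443 none, by the platform annotation, and the brightest probe set stood for each of 5656 genes. Genes at the floor on all arrays (195) were left out. limma 3.58.1 (R 4.3.3) was fitted over the 7 groups, with Benjamini-Hochberg adjustment over the 5461 genes left, and a call needed a change of 2-fold or more with an adjusted p under 0.05. All 21 arrays entered, so that the spread within groups was shared. Other scalings, floors, filters, weights, a replicate block and single arrays left out were tried as alternatives. The script was tested on simulated data.

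The text names the label checks, all reserve carbohydrate genes, up to 6 called and 3 uncalled genes of each other list, the 15 lowest and 15 highest called genes without overlap, and the 10 largest called differences of the mutant effect between limitations. ADA2, AGA1, CTT1, CWP1, DDR48, FUS1, GAP1, HSP12, HSP26, HXT3, HXT4, MEP2, OPT2, SIP18, YGP1 and YMR090W were chosen after their values were seen, some of them beside the rule. The members and lists were chosen with earlier results of these data known.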

Additional observations from a re-analysis of the deposited data

Results flagged for a closer look

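For 27 genes named here the mutant effect in C limitation differed from that in N limitation by the limma test of the difference. Values are log2 effects in C minus N limitation. Among genes of stress and reserves, YGP1 (2.29), HSP12 (1.74), HSP26 (1.50) and TPS2 (1.43) were more positive in C limitation, as was AHP1 (1.82), while SIP18 (-1.08) and MRK1 (-2.90) were more negative. YMR090W (1.94) fell in both limitations, by more in N limitation, RTC3 (2.47) and YEA4 (2.37) fell in N limitation and were not called in C limitation, and YRO2 (2.34) rose in C limitation (log2 1.48) and was not called in N limitation. The calls for HSP26, TPS2, YEA4 and YRO2 ended when single arrays were left out (YEA4 1.91 to 2.59, adjusted p 0.051 to 0.12; YRO2 2.17 to 2.46, adjusted p 0.05 to 0.077). The rise of YRO2 in C limitation also lost its call without wild-type replicate 1 or 2 or mutant replicate 3 (log2 1.36 to 1.46, limma adjusted p 0.055 to 0.081).

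Of the genes described as higher in the C-limited mutant, PIN4 (2.23), DSN1 (2.08), PLB3 (1.95), FUS1 (1.61) and AGA1 (1.53) had a larger effect there, as had AGA2 (1.34). PLB3, FUS1 and AGA1 lost the call for single arrays left out (1.42 to 1.93, adjusted p 0.05 to 0.12). Of the genes lower there, RPR1 (-3.14), SNR4 (-2.83), BAP2 (-2.73), MEP3 (-2.71) and MAL11 (-2.69) differed, as did ADA2 (-2.18). ADA2 was at the floor on all N-limited arrays of both strains, so its difference is that of C limitation alone. Its call ended with a floor of 30. LYS20, a lysine synthesis gene (-1.51), and the sulfate permease gene SUL2 (-1.20) also differed and were called in neither limitation. GPD2 (-2.18), a glycerol 3-phosphate dehydrogenase gene, and RSO55 (-2.31) rose in the N-limited mutant and were not called in C limitation. SUL2 lost the call when any of 10 arrays was left out (-1.00 to -1.26, adjusted p 0.069 to 0.12), and GPD2 for 8 arrays (-1.80 to -2.33, adjusted p 0.05 to 0.097).

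A control probe set for URA3, outside the genes tested, read 1673 ± 440 on the C-limited mutant arrays and 81.8 ± 20.7 on the C-limited wild-type arrays (SD, n = 3 each). Groups of 3 arrays are too small for the search for single outlying arrays made in larger groups.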

How the results depend on the processing

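Counts of calls depended on the scaling, on the arrays in the fit and on single arrays. Without scaling 1310 genes were called in C limitation, 17 higher and 1293 lower, with 20 reserve carbohydrate genes and 17 stress targets lower, and the median log2 of all genes was -0.66. Array weights gave 373 calls (251 higher), an adjusted p alone 416 (196 higher and 220 lower), and a fit of only the 6 arrays 50 (17 higher, 33 lower, 4 reserve carbohydrate genes). Leaving out single arrays gave 141 to 491 calls, 66 to 262 higher and 75 to 229 lower, with 6 to 12 reserve carbohydrate genes and 5 to 7 stress targets lower. Without mutant replicate 1, quantile normalization gave 63 higher and scaling to a common median 54 higher and 97 lower, both chosen after seeing the data.

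The difference between C and N limitation gave 57 genes more negative in C limitation with quantile normalization and 58 with a common median, 129 calls (111 more positive) without scaling, and 477 (358 more positive, 119 more negative) with array weights. Single arrays left out gave 39 to 135 calls, 26 to 96 more positive and 13 to 39 more negative. Without mutant replicate 1, quantile normalization gave 148 calls (85 more negative) and a common median 131 (83 more negative). The causes of these shifts were not tested.

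Same-numbered mutant and wild-type arrays did not deviate together (correlations -0.10, -0.12 and -0.01), so the numbers do not pair the samples. With the replicate number as a block, 204 genes were called in C limitation (105 higher, 99 lower, 9 reserve carbohydrate genes, 6 stress targets) and 69 for the difference (48 and 21). No named result changed direction where it was called in the main fit or in the alternative. Among uncalled results the sign changed in 16 cases with the values as deposited and in 4 without mutant replicate 1. Without that array HXT3 went from log2 0.82 to -0.01 and MEP2 from 1.15 to -0.05. The calls of GPH1, GSY1, GDB1, DCS2, CYC7, DDR2, MAL11 and MEP3 in C limitation held in all 21 settings, while GLG1 lost its call in 15, GIT1 and PUT2 in 12 each and DIA1 in 11. Signals at the floor limit low genes: a fold against them is a bound, and 12.1%, 10.3% and 10.6% of the genes on the mutant arrays and 9.6% to 9.7% of those on the wild-type arrays lay there.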
